A study of Danio rerio with 6 samples.

Results

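The gamma M crystallins are structural proteins of the fish lens. A total of 4 of the 223 genes in the deposited table of whole zebrafish eyes belong to this family, and they were chosen by their symbols, which start with *crygm*: *crygm2d17*, *crygm2d20*, *crygm2d9* and *crygmxl2*. The study sequenced RNA from dissected whole eyes at 72 h post fertilization (hpf), and the labels give 3 *crim1*-/- libraries, which their titles call knockdown, and 3 wildtype control libraries, whereas the series text gives 2 in each group. Both alleles of *crim1* carry a short frameshifting deletion in the *crim1*-/- larvae, a line that goes back to 1 founder and was kept by in-crossing fish without visible eye defects. The control fish came from the EKW strain or from the NBT:DsRed strain, which carries a neuronal reporter, and the labels do not say which strain gave which library. The eyes of a library were pooled, so a lens gene is measured beside RNA of the retina, the pigment epithelium and the cornea. The number of lens cells and the amount of RNA in each cannot be told apart in such a sample.

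Crystallins are the soluble proteins that fill lens fiber cells and give the lens its refractive power. Fish have a large gamma M group, rich in methionine, which packs densely and suits the hard, highly refractive lens of an aquatic eye. The fiber cells make these proteins as they elongate and lose their nuclei and organelles. Many of the *crygm* genes lie side by side in the genome as near copies of each other.

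The only measurement used here is the authors' mean normalized count of each gene over all libraries, which pools *crim1*-/- and control eyes and does not say how many libraries it covers. It is a level, scaled for library depth and not for gene length, and it has no standard deviation because the table holds no values of single libraries. The change of each copy between *crim1*-/- and control eyes is not reported here, because the remaining columns of the table hold the authors' own comparison. Since each listed gene was called as different between the groups, the levels, ranks and shares below belong to the pooled mean and to neither group alone. The table lists only genes that passed the limits of that comparison, so a *crygm* gene without a row has no level here, and its absence does not show that it is silent or unchanged.

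*crygm2d17* (ENSDARG00000069817) had the highest level of the 223 listed genes, with a mean normalized count of 357210. *crygm2d20* (ENSDARG00000091148) followed, at 100967. *crygm2d9* (ENSDARG00000115701) had the next level, 98025. These 3 genes are copies of the *crygm2d* group, and each encodes a gamma M crystallin by its name. The levels of *crygm2d20* and *crygm2d9* were 2942 normalized counts apart, or 3.00% of the *crygm2d9* level, and without a spread between libraries their order cannot be tested. *crygmxl2* (ENSDARG00000074001), named as a like copy of the *crygmx* gene, was far below these, at 5014, and ranked 7 of the 223. These positions order the signal of the genes in the table and not the number of transcripts, since longer transcripts yield more reads. The paper's methods also describe amplification of the cDNA before the libraries were made, and its effect on the levels was not tested.

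**Figure D1:**
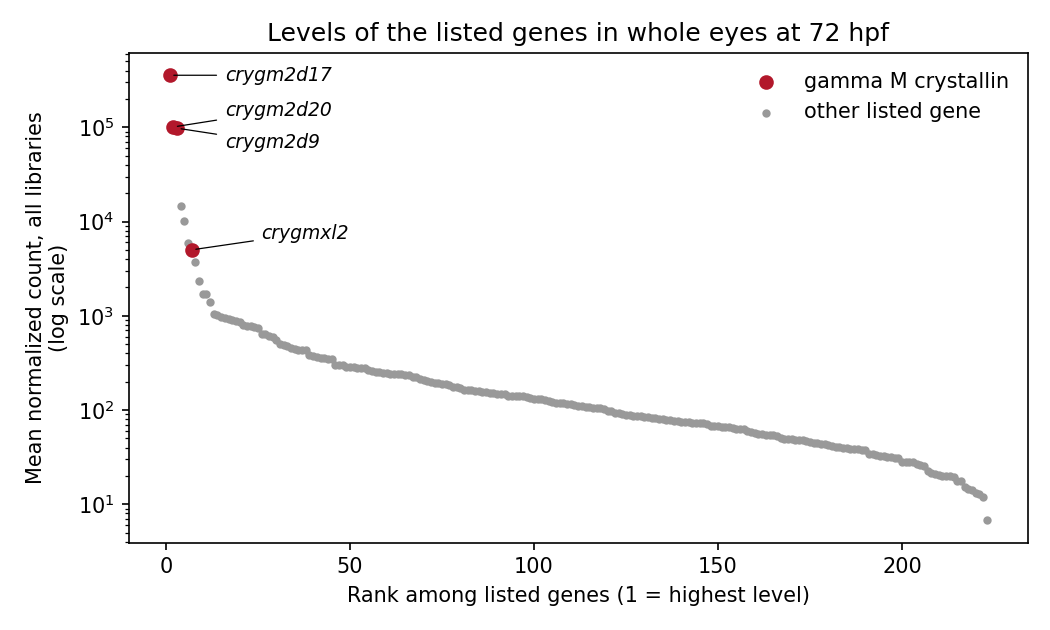
Mean normalized count over all libraries (vertical axis, log scale) of the 223 listed genes, ordered from the highest to the lowest level (horizontal axis, rank), with 1 point a gene and gamma M crystallins in red. The 3 *crygm2d* copies, at 98025 to 357210, stand above every other listed gene, and *crygmxl2* lies at rank 7 with 5014.

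The 219 other listed genes give the scale for these values. Their levels ran between 6.76 and 14769 normalized counts, with a median of 108 and quartiles of 49.7 and 247. Only 2 of them were over 10000 and 10 over 1000, and 104 were under 100. The highest 3 were si:ch73-1a9.3 at 14769, *bzw1a* at 10162 and *elavl1b* at 5955. *bzw1a* encodes a translation regulator, *elavl1b* encodes an RNA-binding protein, and si:ch73-1a9.3 has only a clone-based name. Each of the 3 *crygm2d* copies was above all 219, whereas si:ch73-1a9.3, *bzw1a* and *elavl1b* were above *crygmxl2*. No test was made of these positions, because the genes come from the same libraries and are not replicates.

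The 4 crystallin genes held most of the signal in the table. Their mean normalized counts summed to 561215 of 642431 over all listed genes, a share of 87.4%. *crygm2d17* alone held 55.6%, *crygm2d20* held 15.7%, *crygm2d9* held 15.3% and *crygmxl2* held 0.780%. The 219 other genes together held 12.6%. Among the 4 crystallins, *crygm2d17* made up 63.6% of the signal, *crygm2d20* 18.0%, *crygm2d9* 17.5% and *crygmxl2* 0.893%. The 3 *crygm2d* copies taken as 1 gene reached 556201 normalized counts, which is 99.1% of the gamma M signal in the table. These are shares of the listed genes. The share of all lens RNA or of a whole library was not computed, because genes without a row, among them most crystallins, have no value here.

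**Figure D2:**
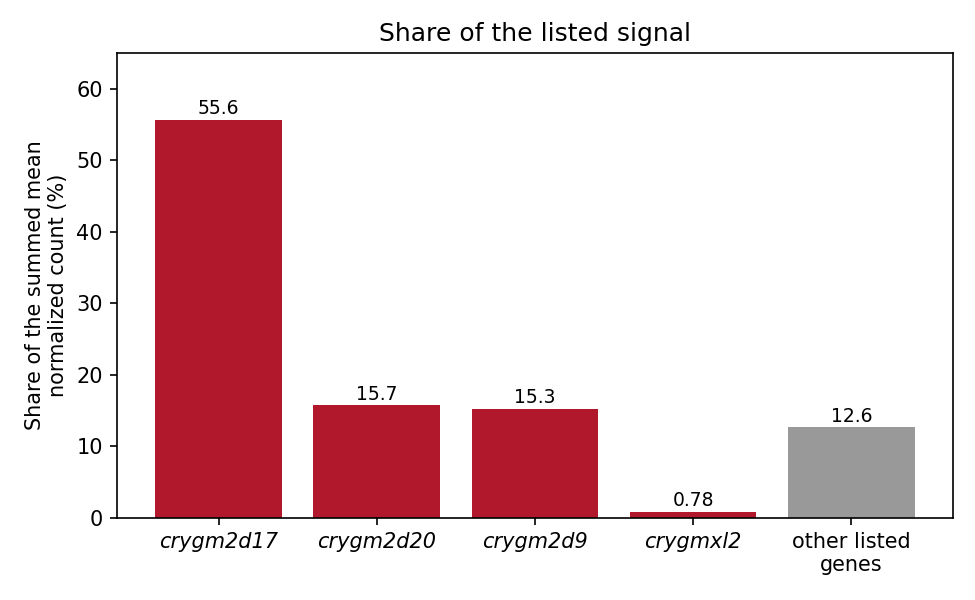
Share of the summed mean normalized count of the 223 listed genes (vertical axis, percent) held by each gamma M crystallin (red bars) and by the 219 other listed genes together (grey bar). *crygm2d17* held 55.6%, and the other genes together held 12.6%.

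The family is much larger than the 4 genes with a level. The gene names used here hold 35 gamma M crystallins, of which 21 are *crygm2d* copies, 3 have names starting with *crygmx* and 11 have other *crygm* names. Rows in the table were found for 3 of the 21 *crygm2d* copies, for 1 of the 3 *crygmx* genes and for 0 of the 11 others, in all 4 of 35. Over all 29201 annotated gene IDs, 207 had a row, or 0.709%. The rest of the 223 listed genes have IDs that are not among those annotated IDs. How many of the annotated genes entered the authors' comparison was not taken from the table. Nothing is read from the 4 of 35, because the family was chosen with the table known. None of the 9 names starting with *cryb* had a row, and these include *crybg1a*, *crybg1b* and *crybgx*. These 9 are the *cryb* names used here and may not be all beta crystallins of the fish. The 2 gamma names outside the M group, *crygs3* and *crygs4*, had no row either. No listed gene has a symbol starting with *crya*. The gene names used here hold no such name either, so the annotated alpha crystallins could not be counted. Of a list of 22 other genes of lens fibers and lens development, 1 had a row: *lctlb*, a relative of lactase expressed in the lens, at 47.8 normalized counts and rank 173. The short marker lists of other tissues had no row, with 0 of 12 photoreceptor genes, 0 of 5 pigment epithelium genes, 0 of 3 skin genes and 0 of 3 muscle genes. Genes outside these lists do have rows, among them the pigment gene *oca2* at 499 normalized counts and the muscle gene *mybpc2b* at 153. The melanopsin gene *opn4b* had 62.7 and the epithelial calcium channel gene *trpv6* had 88.9. All were picked after their rows had been seen, and which tissue their signal came from was not tested. The table, which holds only called genes, cannot show how much of each tissue the eyes contained.

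The 3 *crygm2d* genes lie in a single run of gamma M genes. By gene order in the RefSeq annotation of assembly GRCz12tu, the 35 protein-coding genes between the first and the last *crygm* gene of that chromosome, both included, hold 32 *crygm* genes, and all 21 *crygm2d* copies are among them. *crygm2d17* is at place 16 of the 35, *crygm2d20* at place 23 and *crygm2d9* at place 25. All 6 genes between *crygm2d17* and *crygm2d20* are *crygm* genes without a row. Only *crygm2d5* separates *crygm2d20* from *crygm2d9*. *crygm2d17* sits between *crygm2d18* and *crygm2d8*, neither of which has a row. *crygmxl2* lies outside this run, on another chromosome, directly beside *crygmx*, which has no row.

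**Figure D3:**
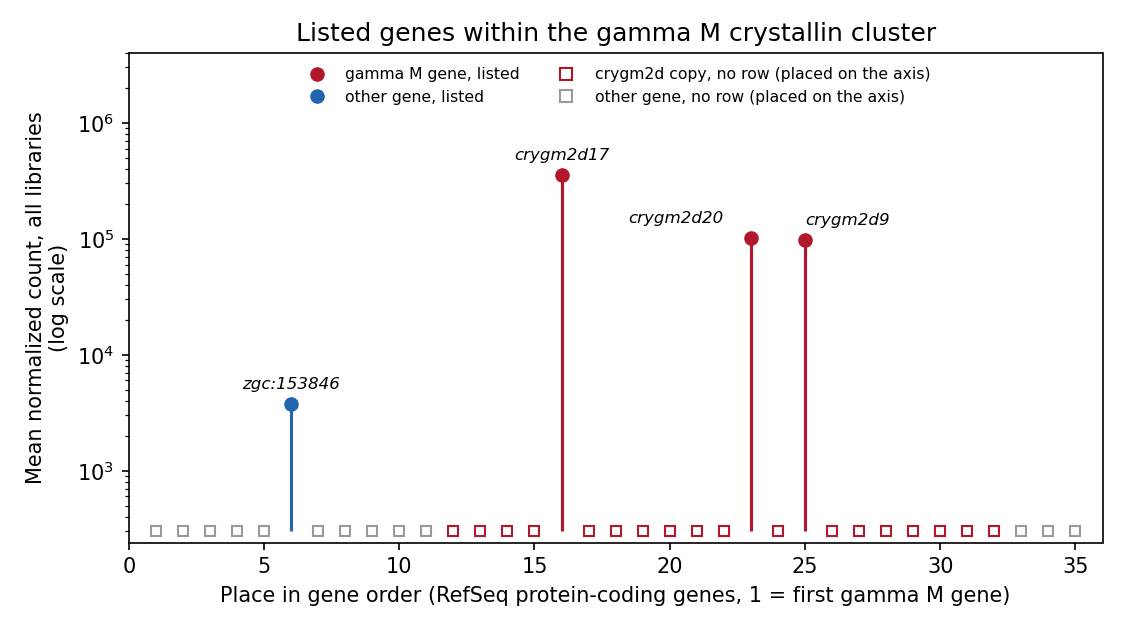
Mean normalized count over all libraries (vertical axis, log scale) of the listed genes among the 35 protein-coding genes that span the gamma M crystallin run, by their place in gene order (horizontal axis); open squares on the axis are genes without a row and carry no level. The 3 listed *crygm2d* copies, at places 16, 23 and 25, lie among 18 *crygm2d* copies without a row, and zgc:153846 is at place 6.

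Matched by symbol, the run holds 1 more gene with a row. The gene zgc:153846 (ENSDARG00000040738) is 1 of 3 genes in the run whose names are not *crygm*. The others of these 3 have clone-based names that may differ between annotations, and their IDs were not checked. The name zgc:153846 says nothing of its product, and whether it encodes a crystallin was not tested. This gene lies at place 6 and had 3749 normalized counts, the level directly below *crygmxl2* at rank 8. It was singled out after its level and place had been seen.

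The separate values of the *crygm2d* copies are uncertain. The reads were single-end and 50 bases long, and the authors assigned them to genes with RSEM, which divides a read that fits several near-identical genes between them. How many reads *crygm2d17*, *crygm2d20* and *crygm2d9* shared with each other was not tested. Nor was sharing with the 18 *crygm2d* copies without a row or with other *crygm* genes. The sum over the 3 copies, 556201, is not affected by reads moved among them. It is affected by reads moved to or from the other 18 copies or other *crygm* genes.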

How the data were processed

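RNA-seq was performed in dissected whole eyes of *crim1*-/- and control zebrafish at 72 hpf, with 3 libraries in each group by the labels, while the series text gives another number. The submitters' processing notes name FastQC, STAR, RSEM, DESeq2 and the build GRCz11, and the paper's methods add BBDuk and Qualimap. No version of these tools is given in the sources used. A table of 223 genes was deposited by the authors, whose methods describe limits on adjusted p, fold change and FPKM, none of which was checked here. Its mean normalized count is a signal, namely gene counts that the authors divided by DESeq2 size factors and averaged over all libraries. The other deposited columns hold the authors' own comparison (log2 fold change, its standard error, p-value and adjusted p-value) and were not used. Library depth, replicate spread and tests between groups could therefore not be examined.

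From the means were computed ranks and shares of their sum, tested on simulated data. Gene IDs of all 4 crystallins matched the table of gene names. Gene order came from RefSeq (GRCz12tu), another assembly than the authors', so no coordinates or lengths are given. Genes in this order were matched to the listed genes by symbol. Named with a level were the 4 crystallins and, as a scale, the 3 other genes with the highest mean. *lctlb* comes from the marker list, and 1 gene of the crystallin run was added later. *oca2*, *mybpc2b*, *opn4b* and *trpv6* are on no list and were picked after their rows had been seen. The members and lists were chosen with earlier results of these data known. Calculations were made in Python 3.11.15 with pandas 2.3.3 and NumPy 2.4.6, and figures were drawn with Matplotlib 3.10.9.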

Additional observations from a re-analysis of the deposited data

How the results depend on the processing

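With the 104 genes of clone-based names or without a symbol left out of the sum, which makes it smaller by construction, the share of the listed signal was 58.7% for *crygm2d17*, 16.6% for *crygm2d20*, 16.1% for *crygm2d9* and 0.824% for *crygmxl2*, and 92.2% for the 4 together. With the *crygm2d* copies summed as 1 gene, the highest share was 86.6% in place of 55.6%, since 3 genes are added. No paired analysis was possible because the values come from no test and the table holds no values per library. For the same reason no fit without a replicate was run. Levels per coding length, protein identity, shared windows and methionine content were planned and not run, since they need sequences that were not used here.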
